A study of Mus musculus with 36 samples.

Results

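Gene expression in the prefrontal cortex (PFC) was compared with that in the periaqueductal grey (PAG) of mice that had sham surgery, using 6 RNA sequencing libraries of each region out of 36 in the series. The 12 libraries were chosen by their labels alone: region PFC or PAG, treatment sham. All came from adult male C57BL/6 mice, killed 2.5 months after a sham operation for a sciatic nerve injury study, so that the animals carry no genetic change and no nerve injury. A further 12 libraries, from the same regions after spared nerve injury (SNI) to the sciatic nerve, gave the same contrast in separate libraries, and 6 sham libraries of the nucleus accumbens (NAc), a striatal region, are given for reference. RNA was pooled for each library. The number of mice behind a library is not stated, nor is whether a mouse gave both regions. P-values here describe library-to-library spread, part of which may be technical.

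The PFC is layered neocortex. Most of its neurons are excitatory projection cells that load glutamate into vesicles with the transporter VGLUT1 (Slc17a7), with local GABA interneurons among them. The PAG is the midbrain grey matter around the cerebral aqueduct, and a relay of the descending pathway that modulates pain. Its glutamate neurons use mainly VGLUT2 (Slc17a6), it is rich in GABA neurons, and it borders the dorsal raphe, the source of much of the forebrain's serotonin. The PFC projects to the PAG, and opioids act in the PAG to reduce pain. In tissue RNA, fewer cells of a type and less RNA per cell cannot be told apart.

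Expression is in RPKM, reads per kilobase of gene length per M reads. Of 15658 genes whose 12-library mean reached 0.5 RPKM, 2429 (15.5%) differed between the regions by a fold of 2 or more with an adjusted p below 0.05 (limma, Benjamini-Hochberg). Of these, 1227 (7.84%) were higher in PFC and 1202 (7.68%) higher in PAG, and such genes are named called below. The split moved with the scaling: with median-of-ratios scaling 1393 were higher in PFC and 1031 in PAG, and with quantile scaling 1315 and 1078. Without the fold requirement 11963 genes (76.4%) passed. At a fold of at least 8 there were 91 genes higher in PFC and 79 higher in PAG, and at a fold of at least 16 there were 32 and 27. The values of the 6 PFC and the 6 PAG libraries did not overlap for 8983 genes (57.4%), among them 1152 of the 1227 genes called higher in PFC and 1198 of the 1202 called higher in PAG. All differences below are PFC minus PAG on the log2(RPKM + 0.5) scale, which understates the fold of genes close to 0, and ± marks the SD of 6 libraries. The median difference over all genes tested was -0.10.

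**Figure D1:**
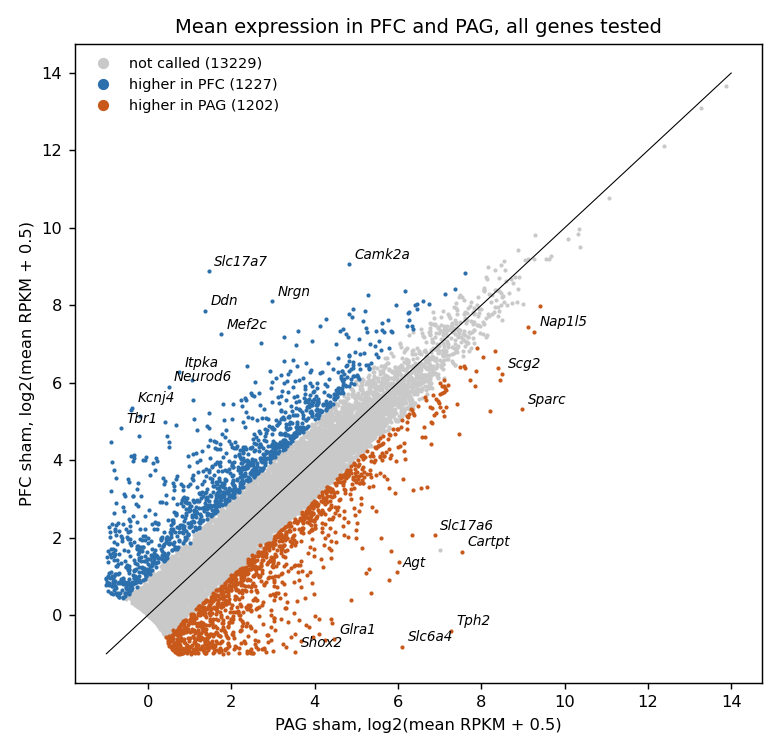
Mean expression of each gene tested in the 6 PAG sham libraries (x axis) and the 6 PFC sham libraries (y axis), both as log2(mean RPKM + 0.5), with the line of equal values. Blue points are the 1227 genes called higher in PFC and orange points the 1202 called higher in PAG; Slc17a7 and Tph2 lie farthest from the line.

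The 12 libraries held 34.3 to 60.7 M reads. PFC libraries were deeper, at 50.2 ± 7.93 M reads against 37.9 ± 3.67 M for PAG (exact permutation test, two-sided, p = 0.00866; the smallest p that 924 assignments allow is 0.00216). Their values also leaned differently with GC content. A library's slope of log2 expression on gene GC content, relative to the 12-library mean and per 10 percentage points of GC, was 0.154 ± 0.151 in PFC and -0.154 ± 0.0603 in PAG (exact permutation p = 0.00433, both p-values 0.00866 after adjustment over these 2 tests). PFC library 13 had a slope of -0.0975 and PFC library 14 of 0.0400, while the other 4 PFC libraries lay between 0.193 and 0.273. The differences were therefore also computed after removing each library's GC trend. Named genes whose call changed are stated below. List counts are those without this correction unless stated, and several of them change with it.

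The 3 genes that mark the regions followed the labels in every library. Slc17a7 ranged over 439 to 499 RPKM (median 475) in PFC and 1.7 to 2.79 (median 2.26) in PAG. The PFC mean was 211 times the PAG mean (log2 difference 7.44, SE 0.0777, limma adjusted p = 1.7e-16), the largest difference on the PFC side of all genes tested. Slc17a6 went the other way, with 2.8 to 4.77 RPKM (median 3.66) in PFC and 112 to 124 (median 116) in PAG (-4.83, SE 0.107, adjusted p = 1.0e-13). Tph2, the rate-limiting enzyme of serotonin synthesis in neurons, ranged over 0.168 to 0.315 RPKM (median 0.264) in PFC and 122 to 186 (median 148) in PAG, and at -7.65 (SE 0.0918, adjusted p = 4.1e-16) had the largest difference of all on the PAG side. The ratio of Slc17a7 to Slc17a6, as a log2 value, was 6.84 ± 0.34 in PFC and -5.43 ± 0.19 in PAG. Tph2 RNA, a marker of the adjoining raphe, was thus present in all 6 libraries labelled PAG. The NAc libraries were uneven for Slc17a7, with 1.59 to 139 RPKM (median 93), and held 1.64 to 3.35 RPKM (median 2.5) of Slc17a6 and 0.169 to 0.321 RPKM (median 0.192) of Tph2.

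The promoters of these 3 genes and of Slc6a4 and Fev, a further pair of serotonin genes, are shown. Slc17a7 and Tph2 stand at the ends of the comparison. Slc6a4 and Slc17a6 are among the 15 largest differences named on the PAG side, and Fev is not. The windows run from 250 bases before to 50 after the RefSeq start (GRCm38.p6, the build of the mm10 files), 5′ to 3′ on the gene's strand, at chr7:45163671-45163970 (Slc17a7, plus strand), chr7:51621580-51621879 (Slc17a6, plus), chr10:115184973-115185272 (Tph2, minus), chr11:76998347-76998646 (Slc6a4, plus) and chr1:74885359-74885658 (Fev, minus). Capitals mark matches, on either strand, to an ETS core (GGAAGT), a site of GATA-binding zinc finger factors (AGATAA), an E-box of neuronal bHLH factors (CAGATG) or a homeodomain core (TAATTA).
Slc17a7: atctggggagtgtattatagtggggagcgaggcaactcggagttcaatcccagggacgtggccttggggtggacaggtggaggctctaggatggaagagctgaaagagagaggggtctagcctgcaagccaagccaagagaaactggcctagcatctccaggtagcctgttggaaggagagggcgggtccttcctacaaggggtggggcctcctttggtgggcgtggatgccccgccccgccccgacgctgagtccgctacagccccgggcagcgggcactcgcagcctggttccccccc
Slc17a6: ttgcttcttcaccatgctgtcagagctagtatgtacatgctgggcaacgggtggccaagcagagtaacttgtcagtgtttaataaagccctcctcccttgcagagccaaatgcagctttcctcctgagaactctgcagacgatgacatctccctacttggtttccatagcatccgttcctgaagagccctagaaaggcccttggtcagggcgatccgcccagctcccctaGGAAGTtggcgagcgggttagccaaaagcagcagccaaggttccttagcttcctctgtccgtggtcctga
Tph2: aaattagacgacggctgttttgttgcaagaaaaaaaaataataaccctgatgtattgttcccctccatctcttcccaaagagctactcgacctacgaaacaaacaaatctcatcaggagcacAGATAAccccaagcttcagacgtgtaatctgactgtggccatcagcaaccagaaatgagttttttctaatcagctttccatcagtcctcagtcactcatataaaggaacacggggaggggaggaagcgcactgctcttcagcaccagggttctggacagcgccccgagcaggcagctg
Slc6a4: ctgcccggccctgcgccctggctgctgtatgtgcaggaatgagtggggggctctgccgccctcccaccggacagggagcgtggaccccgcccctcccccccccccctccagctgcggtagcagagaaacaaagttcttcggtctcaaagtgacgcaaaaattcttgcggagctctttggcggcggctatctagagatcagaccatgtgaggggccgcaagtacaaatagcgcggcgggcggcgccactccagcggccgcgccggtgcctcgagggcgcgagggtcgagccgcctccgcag
Fev: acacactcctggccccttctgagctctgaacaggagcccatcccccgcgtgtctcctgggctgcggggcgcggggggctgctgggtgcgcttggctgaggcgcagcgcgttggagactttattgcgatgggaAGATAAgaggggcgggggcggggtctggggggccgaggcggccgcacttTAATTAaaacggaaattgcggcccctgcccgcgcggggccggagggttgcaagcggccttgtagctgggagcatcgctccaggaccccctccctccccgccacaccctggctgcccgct
Among the windows printed, the GATA letters were found in those of Tph2 and Fev, the homeodomain letters in that of Fev and the ETS letters in that of Slc17a6. The windows of Slc17a7 and Slc6a4 held none of the 4 motifs. Of 3 further windows read but not printed, those of Neurod6 and Gata3 held none and that of Tbr1 held 2 homeodomain matches. Of the promoters of all 10506 tested genes that had one in the RefSeq table, 6.13% held the GATA letters, against 8.53% of 832 for genes called higher in PAG and 5.92% of 794 for those called higher in PFC. The E-box letters were in 11.5% of all, 16.6% for PAG and 13.7% for PFC, the ETS letters in 26.6%, 18.8% and 19.5%, and the homeodomain letters in 2.44%, 2.76% and 2.14%. The median ratio of observed to expected CpG was 0.754 over all tested promoters, 0.588 for genes higher in PAG and 0.707 for those higher in PFC, and motif shares move with such base composition. A match is a run of letters and not evidence of binding.

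Most genes of cortical excitatory neurons were higher in PFC. Of 20 such markers tested, 16 were called, all higher in PFC, with a median difference of 3.27. Markers near 0 in PAG, such as Tbr1 and Fezf2, pass the 0.5 RPKM filter only through their PFC values, so their call could only go to PFC. Tbr1 and Fezf2, transcription factors that specify deep-layer projection neurons, had 27.9 ± 2.09 RPKM in PFC and 0.138 ± 0.0392 in PAG and 21.8 ± 2.47 RPKM in PFC and 0.0424 ± 0.0126 in PAG. The values of Tbr1 ran over 24.5 to 30.8 RPKM (median 28.3) in PFC and 0.103 to 0.193 (median 0.123) in PAG, so that the lowest PFC library was far above the highest PAG library. Neurod6, a bHLH factor of cortical pyramidal cells, had 59.2 ± 7.23 RPKM in PFC and 0.908 ± 0.112 in PAG, and Mef2c, an activity-regulated factor, 152 ± 18.2 RPKM in PFC and 2.86 ± 0.212 in PAG. Their log2 differences were 5.4 and 5.49. Nrgn, which encodes the calmodulin-binding protein neurogranin, had 274 ± 96.4 RPKM in PFC and 7.4 ± 1.09 in PAG (5.05). Its PFC libraries were uneven, with 159 and 155 RPKM in libraries 13 and 14 and 280 to 378 in the other 4, the same pair of libraries that stood apart in GC slope. The 4 markers that were not called differed by less than a fold of 2. Tle4 (0.55) and Rorb (0.26) lay on the PFC side, and Cux1 (-0.44) and Foxp2 (-0.78) on the PAG side. Only Rorb overlapped between the regions, and 57.4% of all genes tested did not overlap. Markers of cortical layers chosen more widely were mixed, with 7 of 22 higher in PFC and 4 higher in PAG. The latter included Nxph4, a deep-layer neurexophilin gene in cortex, at 0.793 ± 0.156 RPKM in PFC and 11.4 ± 1.42 in PAG.

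**Figure D2:**
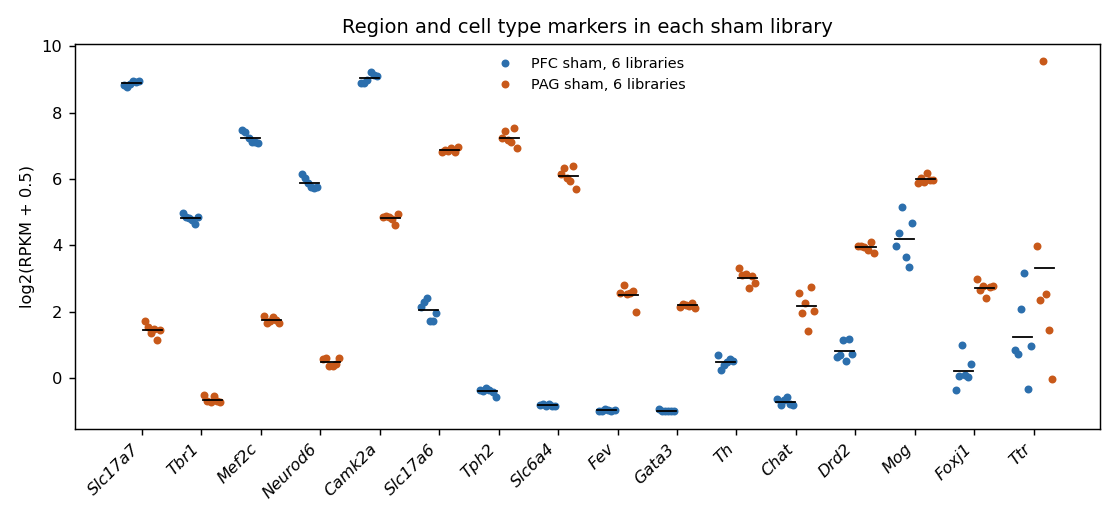
Expression of 16 region and cell type markers in each of the 12 sham libraries, as log2(RPKM + 0.5); dots are libraries and black lines group means. Slc17a7 to Camk2a are higher in all PFC libraries and Slc17a6 to Foxj1 in all PAG libraries, while Ttr overlaps and has a single PAG library at 748 RPKM.

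Developmental transcription factors divided the regions. Of 33 tested factors of the telencephalon, 25 were called, all higher in PFC (median 1.87). Of 37 tested factors of midbrain and hindbrain, 34 were called higher in PAG and 1 in PFC (median -2.24). Another 18 of the 55 midbrain and hindbrain factors listed were below the filter, as were 3 of the 36 telencephalic factors. Factors near 0 in PFC, such as Fev and Shox2, pass it only through their PAG values. Their call could only go to PAG. Likewise, factors near 0 in PAG, such as Tbr1 and Fezf2, pass it only through their PFC values, and their call could only go to PFC. Ebf3 had 0.17 ± 0.0131 RPKM in PFC and 15 ± 0.719 in PAG, Shox2 0.014 ± 0.0109 RPKM in PFC and 11.1 ± 1.22 in PAG and Tcf7l2 0.474 ± 0.0571 RPKM in PFC and 15.6 ± 2.75 in PAG. Pou4f1, a POU factor of midbrain and sensory neurons, ranged over 0 to 0.0141 RPKM (median 0.00622) in PFC and 4.91 to 5.67 (median 5.2) in PAG, and Fev, the factor that sets serotonin neuron identity, over 0 to 0.0204 RPKM (median 0.00575) in PFC and 3.45 to 6.47 (median 5.38) in PAG. For both, every PFC library was close to 0. The exception was Meis2, with 11.7 ± 0.748 RPKM in PFC and 4.36 ± 0.464 in PAG, a factor that NAc held at 39 RPKM. None of 16 Hox genes measured, which mark hindbrain and spinal cord behind the midbrain, reached the 0.5 RPKM mean needed for testing. In the SNI libraries 24 of the telencephalic factors were again called higher in PFC and 32 of the midbrain and hindbrain factors higher in PAG.

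Almost all markers of monoamine neurons were higher in PAG. All 14 serotonergic markers tested were called higher in PAG, with a median of -3.31. Slc6a4, the serotonin transporter, ranged over 0.0534 to 0.0757 RPKM (median 0.0638) in PFC and 51.4 to 82.9 (median 67.7) in PAG (-6.91, adjusted p = 1.6e-15). Slc18a2, which loads monoamines into vesicles, had 1.36 ± 0.152 RPKM in PFC and 54.4 ± 6.43 in PAG, and Ddc, the decarboxylase shared by serotonin and dopamine synthesis, 0.99 ± 0.165 RPKM in PFC and 40.3 ± 5.6 in PAG. Gch1, the first enzyme in making their tetrahydrobiopterin cofactor, had 0.26 ± 0.0523 RPKM in PFC and 7.81 ± 1.17 in PAG. Dopaminergic markers were called higher in PAG for 12 of 13, and the exception, Nr4a2, was not called (0.33). Th, tyrosine hydroxylase, had 0.902 ± 0.152 RPKM in PFC and 7.73 ± 1.17 in PAG, and Slc6a3, the dopamine transporter, 0.0358 ± 0.0139 RPKM in PFC and 1.98 ± 0.31 in PAG, far below Slc6a4 in PAG on the same scale per length. The noradrenaline neuron markers Dbh, Pnmt, Slc6a2 and Phox2a were below the 0.5 RPKM mean. All 8 tested cholinergic markers were called higher in PAG, and 7 of the 15 measured were below the filter. In the SNI libraries 6 of these 8 were called higher in PAG. Markers near 0 in PFC, such as Slc6a4 and Chat, pass the filter only through their PAG values. Their call could only go to PAG. Chat, choline acetyltransferase, ranged over 0.0646 to 0.169 RPKM (median 0.104) in PFC and 2.16 to 6.16 (median 3.94) in PAG. The PAG libraries were uneven for this list, highest in library 29 and, over the whole list, lowest in library 30. Chat and the choline transporter Slc5a7 (0.351 to 0.474 RPKM (median 0.419) in PFC and 6.63 to 20.04 (median 11) in PAG) were lowest in library 28, and no PFC library came near the PAG values.

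Enzymes, transporters and glycine receptors of inhibitory transmission, where called, were higher in PAG, while GABA-A receptor subunits went both ways. Of 18 genes of GABA and glycine transmission, 9 were called, all higher in PAG (median -0.92). The glycine receptor subunit Glra1 ranged over 0.102 to 0.189 RPKM (median 0.167) in PFC and 20.1 to 23 (median 21.6) in PAG (-5.08, adjusted p = 1.7e-16). Slc6a5, the glycine transporter of glycinergic terminals, had 0.0174 ± 0.00941 RPKM in PFC and 6.59 ± 0.69 in PAG. Slc6a11, the astrocytic GABA transporter GAT3, had 38.4 ± 2.09 RPKM in PFC and 296 ± 18.5 in PAG. The glutamate decarboxylase Gad2 had 30.7 ± 2.19 RPKM in PFC and 112 ± 4.47 in PAG, and Abat, which breaks GABA down, 35.3 ± 0.683 RPKM in PFC and 116 ± 2.11 in PAG. The GABA-A receptor genes were divided, with 2 higher in PFC and 3 in PAG of 15. Gabrd, the delta subunit of extrasynaptic receptors, had 15.1 ± 1.12 RPKM in PFC and 0.277 ± 0.12 in PAG (4.34), while the theta subunit Gabrq had 0.302 ± 0.044 RPKM in PFC and 14 ± 0.759 in PAG (-4.18). The alpha subunit Gabra4 was higher in PFC (1.89), and Gabre and Gabrg1 higher in PAG (-2.02 and -1.48).

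Markers of cortical interneuron classes did not move together, with 10 of 26 higher in PFC and 3 in PAG. Cck, cholecystokinin, had 199 ± 29 RPKM in PFC and 18.8 ± 7.41 in PAG and Npy, neuropeptide Y, 69 ± 12.6 RPKM in PFC and 7.85 ± 1.47 in PAG. Lhx6, a factor of interneurons born in the medial ganglionic eminence, had 4.21 ± 0.611 RPKM in PFC and 0.0755 ± 0.0216 in PAG. Calb2, calretinin, was higher in PAG, with 9.46 ± 0.96 RPKM in PFC and 104 ± 6.13 in PAG, and so was Pvalb, parvalbumin, with 16.9 ± 4.55 RPKM in PFC and 56.2 ± 12.6 in PAG. Vip was not called, as its difference was under a fold of 2 (27.9 ± 2.09 RPKM in PFC and 35.7 ± 2.85 in PAG, -0.35).

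Of 34 neuropeptide and granule genes tested, 9 were called higher in PFC and 12 in PAG. Cartpt, the precursor of the CART peptides, ranged over 1.95 to 4.36 RPKM (median 2.18) in PFC and 60.2 to 359 (median 149) in PAG (-5.61, SE 0.417). Its PAG libraries were spread widely, with 359 and 327 RPKM in libraries 25 and 29 and 60.2 in library 30, yet the lowest of them was above every PFC library. Rln3, relaxin-3, which is made by a small tegmental nucleus, had 0.0548 ± 0.0542 RPKM in PFC and 6.42 ± 1.92 in PAG. Nts, neurotensin, had 0.637 ± 0.185 RPKM in PFC and 9.32 ± 0.738 in PAG and Scg2, a granin of secretory granules, 74.7 ± 7.73 RPKM in PFC and 362 ± 18.3 in PAG. Penk, the enkephalin precursor, had 11 ± 1.49 RPKM in PFC and 68.8 ± 3.28 in PAG, against 814 RPKM in NAc. On the PFC side stood Cort, cortistatin (2.83), next to Cck and Npy.

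The 8 opioid genes split by peptide and by receptor. Penk was higher in PAG (-2.6) and Pdyn, the dynorphin precursor, in PFC (8.95 ± 0.592 RPKM in PFC and 3.47 ± 0.349 in PAG, 1.25). The mu receptor Oprm1, on which morphine acts, ranged over 0.294 to 0.466 RPKM (median 0.333) in PFC and 1.76 to 2.14 (median 1.96) in PAG (-1.53, adjusted p = 4.8e-11). Its groups did not overlap. The nociceptin receptor Oprl1 had 15.1 ± 1.2 RPKM in PFC and 40.5 ± 1.23 in PAG (-1.39) and the kappa receptor Oprk1 1.6 ± 0.239 RPKM in PFC and 4.12 ± 0.155 in PAG (-1.14), both higher in PAG. The call of Oprk1 was lost when the GC trend was removed (-0.99) and with a pseudocount of 1 (-0.98). The delta receptor Oprd1 went the other way, with 6.1 to 8.33 RPKM (median 7.45) in PFC and 1.34 to 1.87 (median 1.68) in PAG (1.89, adjusted p = 4.7e-11). The nociceptin precursor Pnoc missed the fold of 2, at -0.96, and passed it when PFC library 18 (-1.01) or PAG library 28 (-1.03) was left out, with a pseudocount of 0.1 (-1.08) and with voom (-1.12). Pomc, the endorphin precursor, was not called (-0.12): PAG library 26 held 12.5 RPKM and the other PAG libraries overlapped PFC, and the sign turned without that library (0.48) or without PFC library 13 (0.14) or 14 (0.08). All 6 of the called opioid genes had the same direction in the SNI libraries, at -1.33 for Oprm1 and 1.96 for Oprd1.

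Receptors for other transmitters also divided by subtype. Among cholinergic receptors the muscarinic genes Chrm1 and Chrm4 were higher in PFC (29.5 ± 1.79 RPKM in PFC and 1.11 ± 0.271 in PAG, and 15.1 ± 2.21 RPKM in PFC and 0.652 ± 0.0862 in PAG) and Chrm2 and Chrm5 higher in PAG (3.16 ± 0.444 RPKM in PFC and 10.6 ± 0.964 in PAG, and 0.102 ± 0.0155 RPKM in PFC and 3.32 ± 0.408 in PAG). The nicotinic subunit genes Chrna3 and Chrna6 were higher in PAG (-1.86 and -2.31). Of 25 monoamine receptor genes, 7 were higher in PFC and 8 in PAG. The dopamine receptors Drd1 and Drd2 went opposite ways, with 5.65 ± 0.726 RPKM in PFC and 1.08 ± 0.174 in PAG for Drd1 and 1.28 ± 0.352 RPKM in PFC and 14.9 ± 1.22 in PAG for Drd2. Serotonin receptors of the 2C and 7 types were higher in PAG, with 3.44 ± 0.286 RPKM in PFC and 31.5 ± 2.89 in PAG for Htr2c and 1.97 ± 0.29 RPKM in PFC and 9.48 ± 0.559 in PAG for Htr7. The adrenergic receptors Adra1d (3.25) and Adrb1 (2.02) were higher in PFC. Of 35 neuropeptide receptor genes, 9 were higher in PFC and 10 in PAG. The PFC group was led by the relaxin receptor Rxfp1 (7.95 ± 1.01 RPKM in PFC and 0.179 ± 0.0562 in PAG), the VIP receptor Vipr1 (7.97 ± 0.861 RPKM in PFC and 0.284 ± 0.043 in PAG) and the cholecystokinin receptor Cckbr (32.8 ± 4.84 RPKM in PFC and 3.57 ± 0.208 in PAG). The PAG group was led by the calcitonin receptor Calcr (0.00636 ± 0.00551 RPKM in PFC and 5.03 ± 0.44 in PAG) and the tachykinin receptors Tacr3 (0.198 ± 0.0415 RPKM in PFC and 6.71 ± 0.64 in PAG) and Tacr1 (0.508 ± 0.127 RPKM in PFC and 7.25 ± 0.59 in PAG). Tacr1 binds substance P, a peptide of pain pathways made from Tac1. Of 9 endocannabinoid genes, 3 enzymes were higher in PFC, Mgll (2.56), Dagla (1.84) and Faah (1.5), while the receptor Cnr1 was not called (44.1 ± 2.92 RPKM in PFC and 24.9 ± 0.975 in PAG, 0.81). With the GC trend removed Cnr1 was called higher in PFC (1.005).

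**Figure D3:**
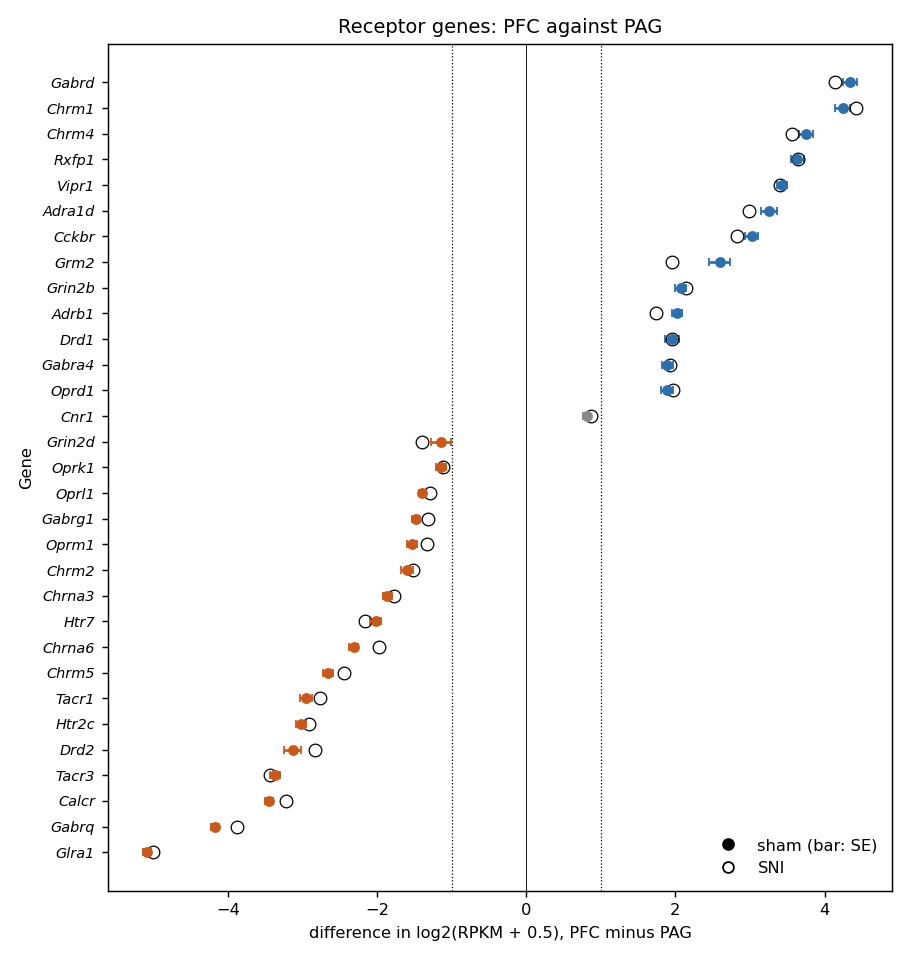
Difference of PFC minus PAG in log2(RPKM + 0.5) for receptor genes; filled points with SE bars are the sham libraries (blue called higher in PFC, orange higher in PAG, grey not called), open circles the SNI libraries, and dotted lines mark a fold of 2. Gabrd and Chrm1 lie at the PFC end and Glra1 and Gabrq at the PAG end, and for each gene drawn the SNI value is on the same side of 0.

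Genes of postsynaptic signalling at excitatory synapses were mostly higher in PFC. Of 43 plasticity genes, 28 were called, all higher in PFC (median 1.55), and 29 were called higher in PFC in the SNI libraries. Ddn, dendrin, ranged over 168 to 275 RPKM (median 245) in PFC and 1.75 to 2.92 (median 2.001) in PAG (6.48, adjusted p = 2.6e-14). Itpka, an actin-bundling kinase of spines, had 76.6 ± 14.3 RPKM in PFC and 1.18 ± 0.199 in PAG, and Camk2a, the alpha subunit of CaM kinase II, 532 ± 51.4 RPKM in PFC and 28 ± 2.19 in PAG, the highest PFC mean of any called gene there. Camk2d, its relative in other tissues, was not called (7.93 ± 0.596 RPKM in PFC and 11.9 ± 0.747 in PAG), so the log2 ratio of Camk2a to Camk2d was 5.98 ± 0.20 in PFC and 1.20 ± 0.0985 in PAG. Rasgrp1, an exchange factor for Ras, had 131 ± 19.1 RPKM in PFC and 6.03 ± 0.572 in PAG. Of 17 ionotropic glutamate receptor subunits 5 were higher in PFC, led by Grin2b (37.9 ± 4.59 RPKM in PFC and 8.6 ± 0.457 in PAG), and 1 in PAG, Grin2d (2.97 ± 0.76 RPKM in PFC and 7.01 ± 0.49 in PAG). Of 13 metabotropic receptor and scaffold genes 7 were higher in PFC, led by Grm2 (19 ± 4.35 RPKM in PFC and 2.67 ± 0.384 in PAG), Homer1 (16.4 ± 2.8 RPKM in PFC and 2.97 ± 0.112 in PAG) and Shank1 (59.4 ± 17.3 RPKM in PFC and 13.1 ± 0.856 in PAG).

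Ion channels divided by family. Of 50 potassium and HCN channel genes, 14 were higher in PFC and 5 in PAG. Kcnj4, an inward rectifier, ranged over 25.3 to 47.9 RPKM (median 44.8) in PFC and 0.158 to 0.351 (median 0.285) in PAG (5.71) and Kcnh3, an EAG-family channel, over 22.3 to 50.8 RPKM (median 42.2) in PFC and 0.196 to 0.428 (median 0.224) in PAG (5.66). Kcnj10, the rectifier of astrocytes, was higher in PAG with 37.9 ± 2.71 RPKM in PFC and 134 ± 4.83 in PAG, as was Kcnj5 (-1.77). Of 12 sodium channel genes 4 were called, all higher in PAG, led by Scn4b (6.41 ± 2.97 RPKM in PFC and 41.3 ± 5.52 in PAG), Scn9a (0.618 ± 0.126 RPKM in PFC and 4.68 ± 0.395 in PAG) and Scn1a (15.6 ± 2.81 RPKM in PFC and 48.4 ± 2.96 in PAG). Of 22 calcium channel genes 6 were higher in PFC and 2 in PAG, led by Cacnb3 (2.38) and Cacna2d2 (-2.17), which encodes a target of gabapentin. After the GC trend was removed the calcium channel count higher in PFC fell to 3 of 22. Of 17 neurofilament and cytoskeleton genes 5 were called higher in PAG and 1 in PFC, with a median of -0.12. Those higher in PAG included neurofilament subunits, with 8.93 ± 1.52 RPKM in PFC and 81.6 ± 14.9 in PAG for Nefh, 20.7 ± 2.76 RPKM in PFC and 109.9 ± 21.9 in PAG for Nefm and 82.6 ± 10.1 RPKM in PFC and 194 ± 26.2 in PAG for Nefl, as was Sncg, gamma-synuclein (-4.65).

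Paralogues of a family often took opposite sides, as shown by the log2 ratio of paired members within a library, 14 pairs in all. The ratio of the NMDA receptor subunits Grin2a to Grin2d was 2.23 ± 0.54 in PFC and -0.34 ± 0.14 in PAG, and that of the AMPA receptor subunits Gria3 to Gria4 was 0.91 ± 0.0520 and -1.29 ± 0.0655. For Kcnj4 to Kcnj5 it was 5.94 ± 0.36 and -1.54 ± 0.0915, and for the homeodomain factors Otx1 to Otx2 1.56 ± 0.13 and -1.93 ± 0.26. In these 4 pairs the 6 PFC and 6 PAG ratios did not overlap.

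Immediate early genes, which neurons switch on with activity, were called for 19 of 26, all higher in PFC (median 1.92). Egr3 ranged over 15.9 to 29.9 RPKM (median 26.2) in PFC and 0.227 to 0.512 (median 0.343) in PAG (4.81), Nr4a1 over 26.2 to 57.2 RPKM (median 45) in PFC and 1.93 to 4.06 (median 2.9) in PAG (3.64) and Arc over 17.9 to 57.9 RPKM (median 47.8) in PFC and 3.1 to 4.56 (median 3.43) in PAG (3.32). PFC library 18 was the lowest of the 6 for Arc, and still above all PAG libraries. In the SNI libraries 15 of them were called higher in PFC, with Arc at 2.23, Junb at 2.29 against 3.33 in sham and Nr4a1 at 2.94. Per1, a clock gene that activity also induces, and Npas2, another clock gene, were higher in PFC (1.91 and 2.85), among 5 of 18 clock genes.

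Genes reported as imprinted, that is expressed from the copy of only the mother or the father in some tissue, were mostly higher in PAG. Of 28 tested, 16 were called higher in PAG and 2 in PFC (median -1.51), and in the SNI libraries the counts were again 16 and 2. Dlk1, a Notch-related ligand, had 0.799 ± 0.332 RPKM in PFC and 29 ± 3.3 in PAG and Peg10, a retrotransposon-derived gene, 3.49 ± 0.406 RPKM in PFC and 47.5 ± 4.22 in PAG. Zim1 and Asb4 had 0.852 ± 0.12 RPKM in PFC and 13.1 ± 0.853 in PAG and 0.143 ± 0.0499 RPKM in PFC and 5.39 ± 0.567 in PAG. Ddc and Calcr, given above, are imprinted in some tissues and stand in this list as well. The 2 genes higher in PFC were Dio3, which inactivates thyroid hormone, and Cdkn1c, a brake on cell division (1.45 and 1.43). Cdkn1c lost its call with the GC trend removed (0.97, against 1.1 for Dio3), and Dio3 lost its call with a pseudocount of 1 (0.94). Nap1l5, which was called but is not among the 6 largest differences of the list, had a PAG mean among the 5 highest of all genes called there (159 ± 13.1 RPKM in PFC and 615 ± 22.7 in PAG).

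Non-neuronal cell types did not differ alike. Of 22 oligodendrocyte and myelin genes, 15 were called, all higher in PAG (median -1.31). Mog, a surface protein of myelin, ranged over 9.64 to 35.4 RPKM (median 17.7) in PFC and 58.5 to 72.5 (median 62.6) in PAG (-1.8). The PFC libraries were uneven in myelin RNA, highest in library 15 (Mog 35.4 RPKM) and lowest in library 17 (9.64 RPKM). For Mog, no PFC library reached the lowest PAG library. The regions did not overlap for 15 of the 22 genes, against 57.4% of all genes tested. None of 9 genes of oligodendrocyte precursors was called (Pdgfra -0.34, limma; 8 of the 9 had an unadjusted p under 0.05). With the GC trend removed, 2 of the 9 were called higher in PAG. Of 15 ependymal and cilia genes, 13 were called higher in PAG (median -2.37), led by Tmem212 (0.365 ± 0.506 RPKM in PFC and 20.9 ± 1.87 in PAG) and Ccdc153 (0.429 ± 0.519 RPKM in PFC and 20.4 ± 1.7 in PAG), which serve the motile cilia of the cells lining the ventricles and aqueduct. Choroid plexus genes were called higher in PAG for 4 of 6, but Ttr, transthyretin, the gene that defines this tissue, was not called. Ttr was 748 RPKM in PAG library 27 and 0.484 to 15.2 RPKM in the other 5 PAG libraries, against 0.293 to 8.41 in PFC. Folr1 was also highest in that library, at 5.28 RPKM against 1.003 to 1.42 in the other 5. The part of choroid plexus tissue in other differences of library 27 was not tested, and without it the number of genes called was 2415.

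Astrocyte genes were called higher in PAG for 7 of 25 and in PFC for 3. Agt, angiotensinogen, ranged over 1.22 to 2.25 RPKM (median 1.58) in PFC and 52.5 to 71.6 (median 62.7) in PAG (-4.88, adjusted p = 1.1e-13), Itih3 had 8.42 ± 0.73 RPKM in PFC and 60.8 ± 5.15 in PAG and the water channel Aqp4 20.2 ± 1.74 RPKM in PFC and 65.5 ± 3.29 in PAG (-1.68). Chrdl1, a BMP antagonist of upper-layer astrocytes, went the other way (3.95 ± 0.403 RPKM in PFC and 0.218 ± 0.0277 in PAG), as did Mfge8 (1.66). The list median was -0.72, with 17 of the 25 genes below 0 and 8 above. Of 20 microglial genes 3 were called higher in PFC (C1qa 1.15, C1qc 1.03, Tmem119 1.18), with a list median of 0.60. In the SNI libraries 0 of the 20 were called (limma; 18 had an unadjusted p under 0.05), and after the GC trend was removed 1 was. C1qc fell below the fold of 2 without PFC library 15 (0.99), 16 (0.997), 17 (0.97) or 18 (0.97) or PAG library 28 (0.97). No gene of 18 endothelial and 13 mural cell genes was called (limma; 16 and 8 had an unadjusted p under 0.05), with list medians of -0.44 and 0.06. With the GC trend removed, 1 mural gene was called higher in PAG. Red blood cell genes did not pass the test (Hbb-bs 12.2 ± 1.77 RPKM in PFC and 11.7 ± 3.21 in PAG, 0 of 5 called by limma, 0 at an unadjusted p under 0.05).

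**Figure D4:**
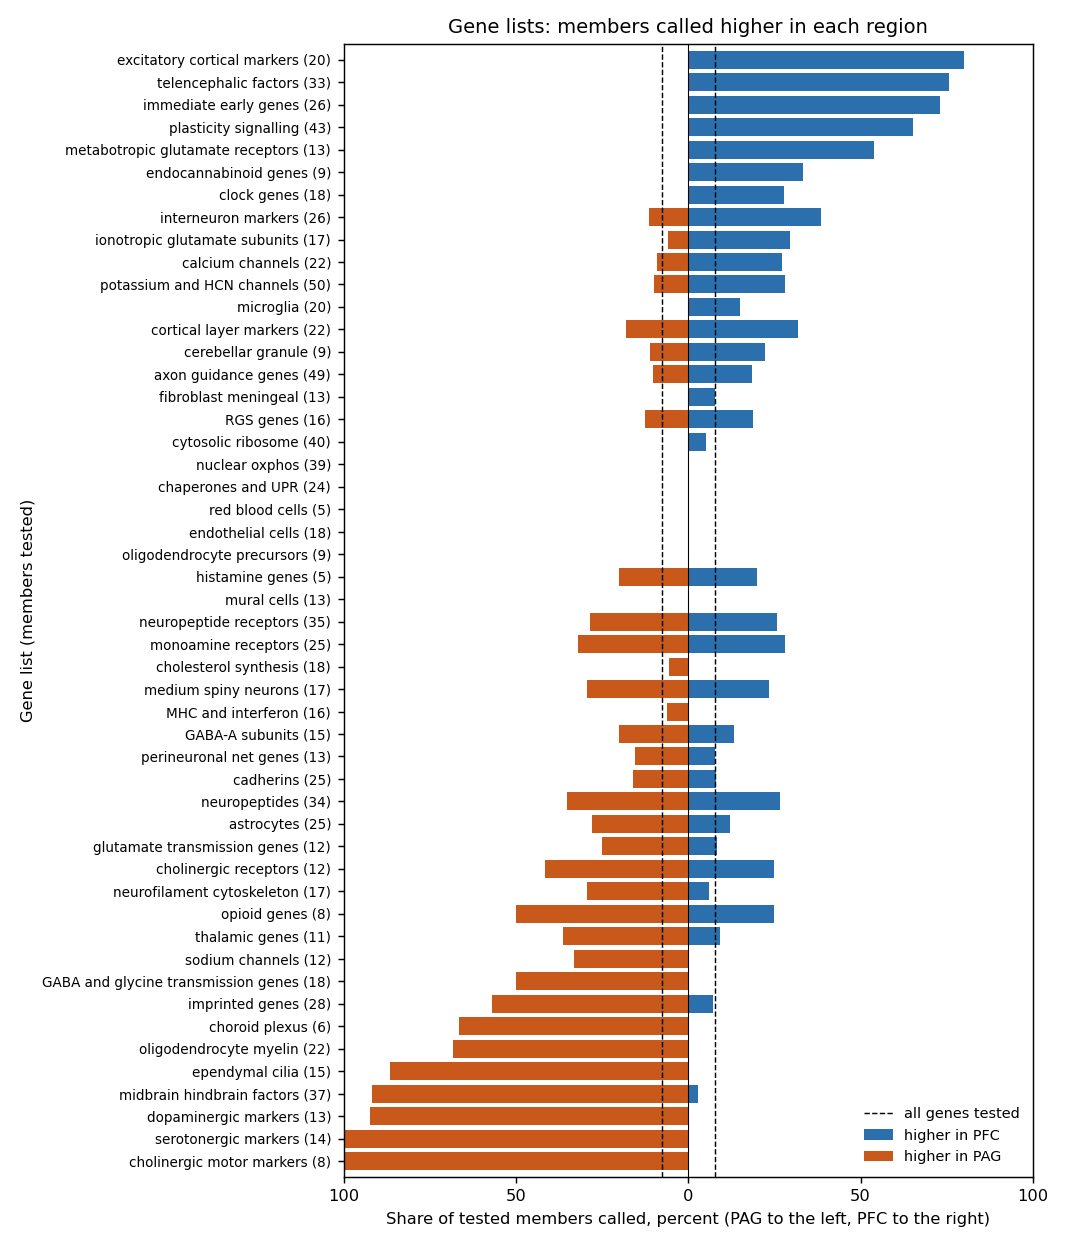
Share of the tested members of each gene list (number tested in brackets) called higher in PFC (blue, right) and higher in PAG (orange, left); dashed lines mark the shares over all genes tested, 7.84% and 7.68%. Excitatory cortical markers and telencephalic factors lie at the PFC end, and serotonergic, cholinergic and dopaminergic markers at the PAG end. Members near the floor in PFC or PAG are tested only through their values in the other region.

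Markers of neighbouring tissue were checked for the dissection. Of 17 genes of striatal medium spiny neurons, 4 were called higher in PFC and 5 in PAG. Of 16 genes of hypothalamic cell types 3 were tested, and the peptide genes Hcrt, Pmch, Avp and Oxt were below the 0.5 RPKM mean. Of 14 genes in the cerebellar granule cell list 9 were tested, with 2 called higher in PFC and 1 in PAG. Gabra6 and Fat2, which mark these cells, were below the 0.5 RPKM mean. Of 11 thalamic genes 4 were higher in PAG and 1 in PFC, and Slc17a6, Shox2 and Tcf7l2 among them are midbrain genes too.

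Housekeeping groups showed small differences. None of 39 nuclear genes of oxidative phosphorylation and none of 24 chaperone genes was called by limma, although 32 and 18 of them had an unadjusted p under 0.05, with medians of -0.42 and -0.35 against -0.10 for all genes. With the GC trend removed, 1 gene of oxidative phosphorylation was called higher in PAG. Of 40 ribosomal protein genes 2 were called, Rpl36 (2.22) and Rps29 (1.23), both higher in PFC. In the SNI libraries neither was called (Rpl36 0.04, Rps29 0.03). Rpl36 was 7.67 RPKM in PFC library 13, 30.1 in library 14 and 60.0 to 78.8 in the other 4, against 4.18 to 13.1 in PAG. Pcsk1n, which encodes the granule protein proSAAS, had the same shape, from 1.36 RPKM in library 13 to 26.1 in library 18 in PFC and 1.43 to 2.67 in PAG. Ribosomal protein genes have near-identical pseudogene copies, so their counts are uncertain.

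The regional pattern was next set beside the SNI libraries, which share no library with the sham contrast. In SNI, 11054 of 15654 genes (70.6%) passed on the adjusted p alone and 2126 (13.6%) were called, 935 (5.97%) higher in PFC and 1191 (7.61%) higher in PAG. With median-of-ratios scaling the larger group was the other one, with 1095 higher in PFC and 1005 in PAG, and with quantile scaling 1063 and 1012. Of the 1227 genes called higher in PFC in sham, 1218 were tested in SNI and 874 (71.2% of the 1227) were called again. The same sign was seen for 1212 and the opposite sign for 6. For PAG 1046 of 1202 (87.0%) were called again, and all 1190 that were tested in SNI had the same sign. The calls shared made up 93.5% of the SNI calls for PFC and 87.8% for PAG. The median difference of the sham calls for PFC was 1.48 in sham and 1.32 in SNI, and of those for PAG -1.49 and -1.44. These genes were chosen for passing a fold of 2 in sham, so the medians are no measure of a change after SNI. A test of the region difference in SNI against that in sham, over 24 libraries, called 0 of 15654 genes (0%; limma, lowest adjusted p = 0.0613), while 3032 (19.4%) had an unadjusted p under 0.05. This count rested on PFC library 13. Without that library it was 2107, and with array weights, which let limma give uneven libraries less weight, 3749. With voom on the recovered reads it was 0.

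Genes called higher in PFC were richer in GC than others. Their median GC content was 54.7%, against 49.0% for genes called higher in PAG and 49.3% for genes not called. Among genes of 60 to 65% GC, 27.9% were called higher in PFC and the median difference was 0.52, against 0.0851 in the SNI libraries. Among the 55 genes of 65 to 70% GC, 56.4% were called higher in PFC. With each library's GC trend removed, 1013 genes (6.47%) were called higher in PFC and 1243 (7.94%) higher in PAG. Of the sham calls, 920 of 1227 for PFC and 1047 of 1202 for PAG were called again. The 5 largest differences on the PFC side all became smaller: Slc17a7 went from 7.44 to 7.19, Ddn from 6.48 to 5.98, Kcnj4 from 5.71 to 5.25, Kcnh3 from 5.66 to 5.08 and Itpka from 5.51 to 4.93. The 4 largest on the PAG side moved less, to -7.48 for Tph2, -6.9 for Slc6a4, -5.68 for Cartpt and -5.09 for Glra1, whereas Fev went from -3.49 to -4.21. Of 143 named genes tested, 5 lost their call (C1qa, C1qc, Tmem119, Cdkn1c and Oprk1), Cnr1 gained one, and Otx1, which was not called, turned sign.

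**Figure D5:**
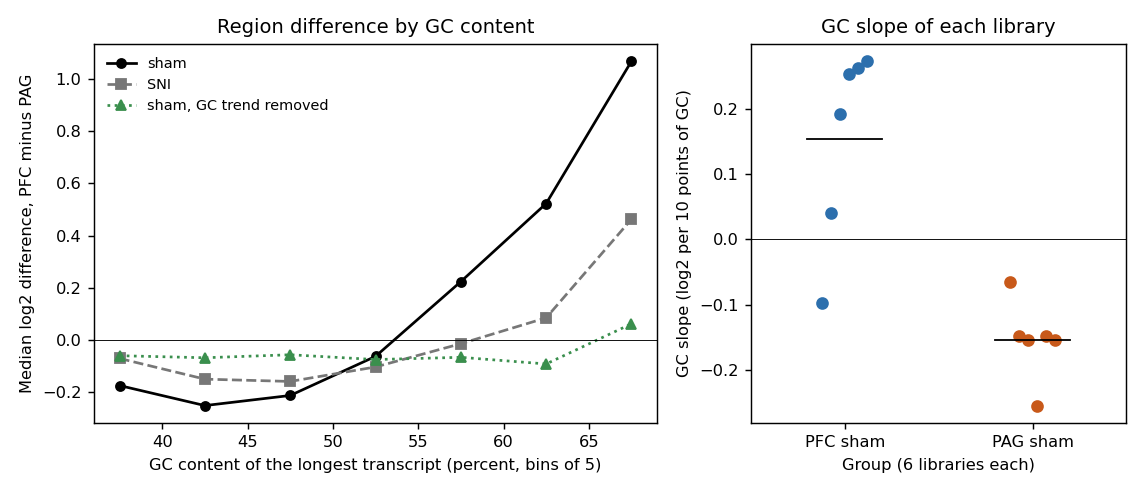
Left, median log2 difference (PFC minus PAG) of genes in bins of 5 percentage points of GC content, in sham, in SNI and in sham with the GC trend of each library removed; right, GC slope of each sham library, with group means as lines. In sham the median runs from -0.25 at 40 to 45% GC to 1.07 at 65 to 70% GC, and PFC library 13 is the PFC library with a slope below 0.

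The called genes were next set beside their NAc level. Of the genes called higher in PFC, the NAc mean was nearer to PFC for 772 and nearer to PAG for 455. Of those called higher in PAG it was nearer to PFC for 955 and nearer to PAG for 247. NAc lay outside both regions for many: above both for 254 and below both for 130 of the former, and for 74 and 267 of the latter. Tbr1 (0.363 to 7.46 RPKM (median 5.52) in NAc) and Neurod6 (0.146 to 7.8 RPKM (median 6.29)) were lower in NAc than in PFC and uneven between NAc libraries, as was Slc17a7. The mean levels of other PFC genes in NAc were high, with 234 RPKM for Ddn, 296 for Camk2a and 53.7 for Kcnj4. Glra1 (0.227), Slc6a4 (0.0421) and Ebf3 (0.161) were low in NAc, as in PFC.

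Called genes were not spread evenly over chromosomes. On the X chromosome 83 of 560 tested genes (14.8%) were called higher in PAG, against 7.68% over all chromosomes, and 22 (3.93%) higher in PFC. The highest share higher in PAG on an autosome was 10.2%, on chromosome 3. With the GC trend removed, 74 X-linked genes (13.2%) were called higher in PAG. X-linked genes among the largest PAG differences were Arhgap36 (0.139 ± 0.0325 RPKM in PFC and 18.5 ± 2.48 in PAG), Dgkk, a diacylglycerol kinase (0.217 ± 0.0339 RPKM in PFC and 16.7 ± 0.962 in PAG), and Gabrq. The shares are given as a description, since genes on a chromosome are not independent samples.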

How the data were processed

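The authors deposited expression as RPKM for 31554 genes in 36 libraries of polyadenylated RNA, per the labels' protocols from pooled RNA. TopHat2, HTSeq and the build mm10 are named in the submitters' processing notes. Versions, settings and strand handling: not given in the sources used here. Thus overlapping, antisense and duplicated genes stay uncertain. All values were whole reads (100% within 0.001 of a read), with 34.3 to 60.7 M reads in the 12 libraries. At 0.5 RPKM a gene of 1 kb held at least 17.1 reads, a counting error of up to 24.1%. Replicates within a region differed by more than sampling noise (lowest chi-square per degree of freedom 4.12 over 30 pairs).

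limma 3.58.1 (R 4.3.3) with a mean-variance trend was fitted to log2(RPKM + 0.5) over 15658 genes and tested on simulated data. A gene was called at a Benjamini-Hochberg adjusted p below 0.05 with a fold of 2 or more. GC content came from GENCODE M21, matched for 97.9% of gene identifiers. The comparison, its gene lists (53) and the motifs were chosen with earlier results of these data known. Genes were named by a rule: per direction the 15 largest differences and 5 highest means, per list the 6 largest called, and all members of lists of at most 12 genes, cell type markers and paired paralogues. Aqp4, Cdkn1c, Dio3, Drd1, Fat2, Foxj1, Gch1, Kcnj10, Meis2, Mfge8, Nr4a2, Pcsk1n, Pvalb, Slc6a3, Vip and the 4 uncalled cortical markers were named after their values were seen. Some genes that the rule names are not reported here. Alternatives covered the pseudocount, the filter, scaling, weights, GC trend, voom on recovered reads, thresholds and each library left out. The restriction to protein-coding genes was chosen after seeing the data.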

Additional observations from a re-analysis of the deposited data

Results flagged for a closer look

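For each of 153 named genes, the highest and the lowest of the 6 libraries in each region were compared with the rest by Dixon's criterion, which chance meets in about 1 in 20 groups. Of 306 groups 23 met it. PFC library 13 stood highest in its group for Homer1 (21.9 RPKM), Nefh (11.8), Nefl (102), Nefm (26.1), Penk (13.7), Scn1a (21.1) and Scn4b (12.3). It is also the PFC library with the lowest GC slope. PFC library 17 stood highest for Oprm1 (0.466 RPKM), Scn9a (0.865) and Tacr1 (0.761) and lowest for Tac1 (3.71). In PAG, library 27 stood highest for Ttr (748 RPKM), Folr1 (5.28) and Otx2 (6.87), a factor that choroid plexus cells also express. PAG library 26 stood highest for Pomc (12.5), library 25 for Avp (0.193), Ddn (2.92) and Kcnh3 (0.428), and library 29 for Lhx6 (0.116). PAG library 28 stood lowest for C1qa (7.06) and C1qc (4.29) and highest for Foxp2 (3.06) and Rorb (2.42).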

How the results depend on the processing

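The genes called between the sham regions numbered 2360 to 2498 when each library was left out, 1159 to 1294 of them higher in PFC and 1174 to 1248 higher in PAG. They numbered 1585 (763 higher in PFC) when tested against a fold of 2, 587 (292 and 295 higher in PAG) at a fold of at least 4, and 11963 (4831 and 7132) at an adjusted p alone. With a filter of 2 RPKM, 792 were higher in PAG. In SNI the count was 2094 to 2208 with each library left out (906 to 959 higher in PFC and 1174 to 1263 higher in PAG), 1392 (760 higher in PAG) against a fold of 2, 516 (239 and 277) at a fold of 4, 11054 (6867 higher in PAG and 4187 higher in PFC) at an adjusted p alone, and 783 higher in PAG with a filter of 2 RPKM. The test of the region difference in SNI against that in sham ranged from 0 to 2107 genes with a library left out, and gave 4 with a pseudocount of 1, 2 with all 36 libraries in the fit and 3749 with array weights. The cause was not tested. Scaling by median of ratios moved the median difference of all genes from -0.10 to 0.00676. The GC slope difference was 0.285 to 0.359 with a library left out and the depth difference 10.2 to 15.1 M reads. Pomc turned sign without PFC library 13 (0.14), PFC library 14 (0.08) or PAG library 26 (0.48), with a leave-one-out range of -0.47 to 0.48; Hbb-bs did so without PAG library 28 (-0.00558, range to 0.19), and Otx1 with the GC correction (-0.0153). None of these 3 genes passed the test in any direction under those settings. No paired analysis was possible because the groups share no replicate numbers. Genes under about 0.5 RPKM are limited by depth.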

Other observations

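Trbc2, a constant segment of the T-cell receptor beta locus named after its value was seen, ranged over 10.8 to 23.1 RPKM (median 14.8) in PFC and 0.43 to 0.784 (median 0.683) in PAG (log2 difference 3.81, limma adjusted p = 4.7e-11), with 0.25 RPKM in NAc. The difference was 3.87 in the SNI libraries. Of the genes called, 42 higher in PFC and 4 higher in PAG are annotated as miRNA genes, although the libraries were made from polyadenylated RNA. The share of tested miRNA genes that was called is not given. The counts therefore cannot be set against the 7.84% and 7.68% over all genes tested, and no regional reading is drawn from them.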
